A study of Mus musculus with 6 samples.

Results

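The miRNAs described here are the mouse names miR-297, miR-466, miR-467 and miR-669, chosen by name alone: every name with 1 of these 4 numbers, any letter and either arm, with no minimum level. They made up 80 of the 2009 names in the deposited table, with 6 names of miR-297, 31 of miR-466, 13 of miR-467 and 30 of miR-669. miRNAs are cut from the 5p or 3p arm of a hairpin and guide Argonaute proteins to mRNAs that pair with their seed, bases 2 to 8. Most of these hairpins form a large rodent cluster in an intron of Sfmbt2, a Polycomb-group gene that is expressed from the paternal allele in mouse extraembryonic tissue. The cluster is known mainly from embryonic stem cells and placenta.

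Small RNA was profiled in 6 libraries from hearts of male mice, 3 sham and 3 ischemia-reperfusion (I/R), and the labels call the 3 of a group biological replicates. All hearts were isolated and perfused through the aorta on a Langendorff system. Sham hearts went on beating, whereas I/R hearts spent 30 min arrested with cardioplegia, a solution that stops the heartbeat, followed by 1 h of reperfusion. Neither strain nor age is given in the sources used here. Depth ran from 7874103 to 9197869 reads on named miRNAs per library. Levels are in RPM, reads scaled to 1000000 per library, so that 1 read was worth 0.109 to 0.127 RPM and 3 reads, taken as the limit that a count of 0 allows, 0.326 to 0.381 RPM. Such limits cover counting error only. The heart label was checked on muscle miRNAs: miR-1a-3p lay between 351573 and 382877 RPM and miR-499-5p between 5217 and 6248 RPM. Lower were miR-133a-3p, between 798 and 1798 RPM, and miR-208a-3p, between 147 and 181 RPM. The brain miRNA miR-124-3p had no read, while miR-9-5p, also known from brain, lay between 81.1 and 146 RPM.

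The annotation placed most, but not all, of these names in Sfmbt2. GENCODE lists 82 hairpins for them, of which 72 lie within Sfmbt2 on chromosome 2 (10370510 to 10595253, plus strand, GRCm38) and 10 lie elsewhere. All 72 are on the plus strand, none overlaps an exon, and they span 51617 bases from 10466663 to 10518279. In the 23-exon transcript ENSMUST00000041105.6 they lie in intron 10, which runs from 10461473 to 10523944. Counted by family, 29 of 30 miR-669 hairpins, 24 of 29 miR-466, 14 of 17 miR-467 and 5 of 6 miR-297 hairpins were in the intron. The label "Sfmbt2 cluster" therefore held for 64 names in full and for 5 in part. The other 9 names have their hairpins elsewhere, and for miR-466a-3p and miR-466a-5p, both with no read, no hairpin was matched by name.

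The intron is built from repeats. A miR-467 hairpin was directly followed by a miR-466 and then a miR-669 hairpin 12 times. The 10 hairpins of miR-467a stood at a median spacing of 2462 bases, from 2413 to 4880. miR-669a had 12 hairpins, miR-467a 10, miR-466b 8, and miR-297a and miR-466f 4 each. Reads of such a name cannot be assigned to 1 of its hairpins.

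**Figure D1:**
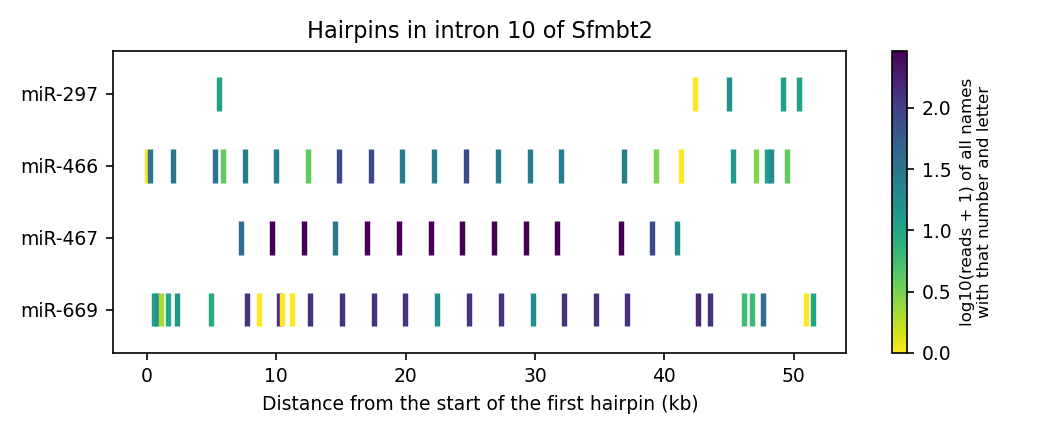
Positions of the 72 hairpins along intron 10 of Sfmbt2, as distance in kb from the start of the first hairpin, in 1 row per family; colour gives log10(reads + 1), summed over 6 libraries and over all names with that number and letter, so hairpins that share a letter share a colour. The 10 miR-467a hairpins, which share 292 reads, alternate with miR-466 and miR-669 hairpins through the middle of the intron.

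Mature sequences were found in the RefSeq table (GRCm38.p6) for 8 of the 80 names, all from hairpins outside Sfmbt2. They are shown because they display alternating GU or CA repeats, with the seed in capitals, 5′ to 3′.
miR-466k: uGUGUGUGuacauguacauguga
miR-466j: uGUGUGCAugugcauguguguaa
miR-467h: aUAAGUGUgugcauguauaugu
miR-669n: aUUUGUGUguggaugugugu
miR-466q: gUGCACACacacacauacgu
miR-467f: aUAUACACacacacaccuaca
miR-467g: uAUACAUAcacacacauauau
miR-466i-3p: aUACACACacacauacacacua
No seed was shared by a pair of these 8. Among names with a RefSeq mature sequence, miR-668-5p was the only other one to share a seed, that of miR-467h. The other 72 of the 80 names had no sequence there, so their seeds were not compared. The first 4 hold UGUGUG and the last 4 its complement ACACAC. Among all 1679 names with a RefSeq mature sequence, UGUGUG occurred in 28 (1.67%) and ACACAC in 11 (0.655%), so both motifs were scarce among these 1679. The 8 printed names are counted in, and names without a sequence were not searched. Both motifs were searched as written, on the mature strand. The printed miRNAs are on chromosomes 3, 5, 9, 10, 11 and 13. miR-466k is at chr3:85467396-85467418, miR-466q at chr3:28419988-28420007 and miR-669n at chr3:115979905-115979924, all on the plus strand. Also on the plus strand are miR-466j at chr10:60960802-60960824, miR-466i-3p at chr13:17747552-17747573 and miR-467h at chr9:115381898-115381919, while miR-467f at chr11:69635419-69635439 and miR-467g at chr5:34732872-34732892 are on the minus strand. By their hairpins, miR-466q lies in an intron of Tnik on the same strand. miR-467f lies opposite to an intron of Fxr2, miR-669n to one of Slc30a7, miR-467g to one of Grk4 and miR-466i to one of Cdk13. The hairpins of miR-466j and miR-467h lie wholly within no protein-coding gene and no non-coding gene of the types searched. Partial overlaps and other gene types were not searched.

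The repeat reaches beyond the mature miRNA. The hairpin of miR-466k (chr3:85467377-85467498, plus strand, GRCm38.p6), which lies in an intron of Gm37240 on the opposite strand, is shown with the mature sequence, bases 20 to 42, in capitals.
Mir466k: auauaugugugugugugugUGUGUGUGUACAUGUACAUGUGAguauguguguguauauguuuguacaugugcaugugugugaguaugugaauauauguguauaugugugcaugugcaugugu

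The 80 names were scarce in these hearts. Together they held 1134 of 50393176 reads (0.00225%). Their summed level in sham replicates 1 to 3 was 20.3, 23.7 and 20.6 RPM, and in I/R replicates 1 to 3 it was 20.9, 23.0 and 26.8 RPM. The groups overlapped, since sham replicate 2 lay above I/R replicates 1 and 2, and the means were 21.6 ± 1.89 and 23.5 ± 3.01 RPM (SD, n = 3 each). In whole hearts, fewer cells of a type and less RNA per cell cannot be told apart.

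Detection was thin. Of the 80 names, 23 had no read in any library, which allows a level of up to 0.0595 RPM over all 6 libraries, and 36 more had 1 to 9 reads in all. In all 6 libraries 14 names were above 0. Sham libraries had 35, 37 and 35 of the names above 0 and I/R libraries 34, 28 and 34, and 10 to 13 of these in each library rested on a single read. At least 3 reads were reached by 15, 17 and 13 names in sham and by 14, 14 and 16 in I/R libraries. Of all 2009 names in the deposited values, 750 (37.3%) had no read in any library, beside 28.75% of the 80. Above 0 in all 6 libraries were 555 of the 2009, beside the 14 of the 80.

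**Figure D2:**
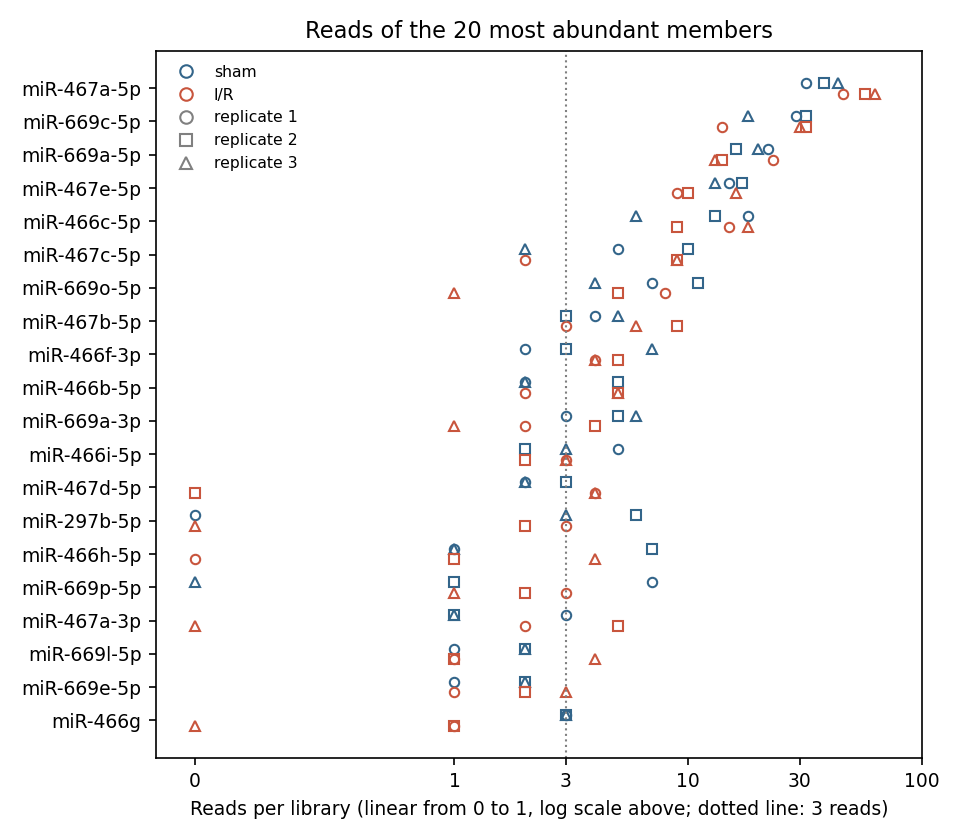
Reads per library of the 20 most abundant names, ordered by mean RPM (horizontal axis linear from 0 to 1 read and logarithmic above; blue sham, red I/R, symbol shape the replicate number; the dotted line marks 3 reads). The 5 names at the top have 6 or more reads in every library, while from miR-467d-5p down every name has a library at 0 or 1 read.

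Only 5 names reached the mean of 1 RPM needed for testing, all of them 5p arms with every hairpin in the Sfmbt2 intron. They held 61.9% of the reads of the 80 names, and miR-467a-5p alone held 24.7%. In the order of all 2009 names by mean level, miR-467a-5p ranked 267, miR-669c-5p 308, miR-669a-5p 343, miR-467e-5p 361 and miR-466c-5p 366. Just below the limit stood miR-467c-5p with a mean of 0.735 RPM, and the lowest name above it was miR-466c-5p with 1.56 RPM.

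miR-467a-5p, the name with 10 hairpins, was the most abundant and the only one of the 5 whose groups did not overlap. It was at 3.48, 4.29 and 5.43 RPM in sham replicates 1 to 3 and at 5.61, 6.97 and 8.0 RPM in I/R replicates 1 to 3, from 32, 38 and 44 and from 46, 57 and 63 reads. Every I/R heart was above every sham heart, but the nearest pair, sham replicate 3 and I/R replicate 1, differed by less than counting error. Their exact Poisson 95% intervals were 3.95 to 7.29 and 4.11 to 7.49 RPM. The group means were 4.4 ± 0.98 and 6.86 ± 1.20 RPM (SD, n = 3 each).

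On the log2 scale with 1 RPM added, which understates the change of scarce miRNAs, miR-467a-5p was 0.55 higher in I/R (SE 0.20, 95% interval 0.09 to 1.00). It had an unadjusted p of 0.0240 and an adjusted p of 0.598 in limma with Benjamini-Hochberg adjustment over all 409 names tested, and so did not pass 0.05. Over its alternative settings the adjusted p in limma, edgeR and DESeq2 ran from 0.223, in limma with the replicate number as a block, to 0.950. Of the 409 names, 46 (11.2%) had separate groups with I/R higher and 30 (7.33%) an unadjusted p under 0.05 in limma, beside 1 of the 5 on each count. With separate groups and I/R lower there were 16 (3.91%), none among the 5. The median log2 fold change of all 409 names was 0.10, and with quantile normalization, which moved that median by -0.11, miR-467a-5p stood at 0.46.

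miR-669c-5p, from a single hairpin, was the second most abundant. It was at 3.15, 3.62 and 2.22 RPM in sham replicates 1 to 3 and 1.71, 3.91 and 3.81 RPM in I/R replicates 1 to 3. The I/R group held both the lowest and the highest library, and its log2 fold change was 0.02 (SE 0.27, 95% interval -0.60 to 0.64). The sign turned under every rescaling of the libraries, with values of -0.10 to -0.0378, and without sham replicate 3 (-0.13), I/R replicate 2 (-0.13) or I/R replicate 3 (-0.12).

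miR-669a-5p, the name with 12 hairpins, was at 2.39, 1.81 and 2.47 RPM in sham replicates 1 to 3 and 2.81, 1.71 and 1.65 RPM in I/R replicates 1 to 3. All sham values lay inside the I/R range, and the log2 fold change was -0.09 (SE 0.22, 95% interval -0.60 to 0.41). With 1 library left out it ran from -0.26, without I/R replicate 1, to 0.00169, without I/R replicate 3, so its sign was not stable.

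miR-467e-5p, from a single hairpin, was at 1.63, 1.92 and 1.61 RPM in sham replicates 1 to 3 and 1.10, 1.22 and 2.03 RPM in I/R replicates 1 to 3. I/R replicates 1 and 2 were the lowest of the 6 libraries and I/R replicate 3 was the highest. The log2 fold change was -0.17 (SE 0.22, 95% interval -0.67 to 0.34), and with 1 library left out it ran from -0.33, without I/R replicate 3, to -0.06, without I/R replicate 1.

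miR-466c-5p, from 3 hairpins, was at 1.96, 1.47 and 0.741 RPM in sham replicates 1 to 3 and 1.83, 1.10 and 2.29 RPM in I/R replicates 1 to 3. Sham replicate 3 was the lowest library, and the log2 fold change was 0.21 (SE 0.28, 95% interval -0.42 to 0.83). Without that library it was -0.00479, so the sign of this small difference rested on a library with 6 reads. Sham replicate 3 was also the lowest sham library for miR-669c-5p and the highest for miR-467a-5p. For both names the exact Poisson 95% intervals of sham replicates 1 and 3 overlapped. Whether the 5 names moved together across libraries was not tested.

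**Figure D3:**
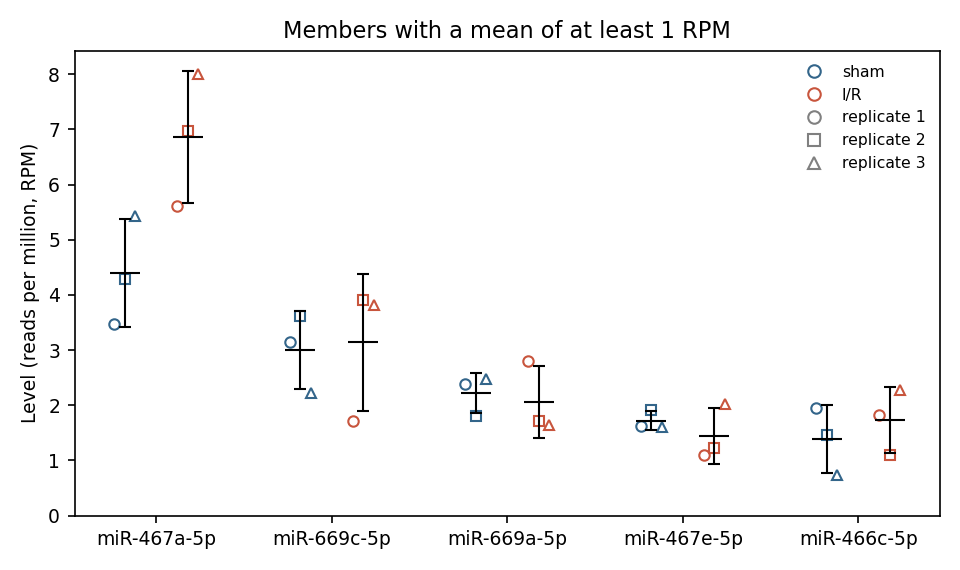
Level in RPM of the 5 names with a mean of at least 1 RPM, in each library (blue sham, red I/R, symbol shape the replicate number) with the group mean and SD in black, n = 3 each. The I/R values of miR-467a-5p lie above all its sham values, and the groups of the other 4 names overlap.

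Of the 5 tested names 0 were called higher and 0 lower at an adjusted p of 0.05 in limma, where 0 of all 409 were called (0.0%). At an unadjusted p under 0.05 there were 30 of 409 in limma and 26 in edgeR, with 1 of the 5, miR-467a-5p, in both. edgeR also called 0 of 409 (0.0%), DESeq2 2 of 409 (0.489%) and limma with the replicate block 4 of 409 (0.978%), and none of these was among the 5. The median of the 5 log2 fold changes was 0.02, with 3 above 0 and 2 below, beside 0.10 over all names tested, with 287 above 0 and 122 below. The 95% intervals reached from a fold of 0.626 for miR-467e-5p to 2.0 for miR-467a-5p on this scale, so these libraries leave room for changes of that size.

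The remaining names of the 20 most abundant lay between 0.213 and 0.735 RPM. miR-467c-5p had 5, 10 and 2 reads in sham and 2, 9 and 9 in I/R replicates 1 to 3, and miR-467b-5p had 4, 3 and 5 and then 3, 9 and 6. miR-669o-5p had 7, 11 and 4 reads in sham and 8, 5 and 1 in I/R hearts. In all 3 the groups overlapped. miR-466b-5p, with 8 hairpins, had only 21 reads over 6 libraries, and miR-467d-5p 15, miR-297b-5p, miR-466h-5p and miR-669p-5p 14 each.

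Only miR-466g, named without an arm, had separate groups with I/R lower among the 75 names not tested. It had 3, 3 and 3 reads in sham and 1, 1 and 0 in I/R replicates 1 to 3. Of all 1600 names not tested, 14 (0.875%) had separate groups with I/R lower. In either direction there were 49 (3.06%), beside miR-466g alone among the 75. All 6 values of miR-466g are at or under the limit of 3 reads, so no fold is given. Fitted without a filter on low values it had an adjusted p of 0.737 in limma.

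Within the families, miR-467 carried 41.6% of the reads of the group, miR-669 35.5%, miR-466 20.5% and miR-297 2.29%. The miR-467 names summed to 7.18, 8.36 and 8.64 RPM in sham replicates 1 to 3 and 8.66, 11.0 and 12.8 RPM in I/R replicates 1 to 3. The groups did not overlap, by a margin far under the RPM value of 1 read. Without miR-467a-5p the other 12 names of miR-467 summed to 3.70, 4.07 and 3.21 RPM in the sham hearts and 3.05, 4.04 and 4.83 RPM in the I/R hearts, and the groups then overlapped.

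The other families overlapped between groups or rested on few reads. miR-669 summed to 8.16 ± 0.59 RPM in the sham group and 7.80 ± 0.42 RPM in the I/R group, and miR-466 to 4.58 ± 1.12 and 4.67 ± 0.97 RPM (SD, n = 3 each), with overlapping groups in both. miR-297 had 5, 11 and 4 reads in sham and 3, 2 and 1 in I/R replicates 1 to 3, spread over 4 names. These sums did not overlap, but they are family totals of a handful of reads with no test.

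**Figure D4:**
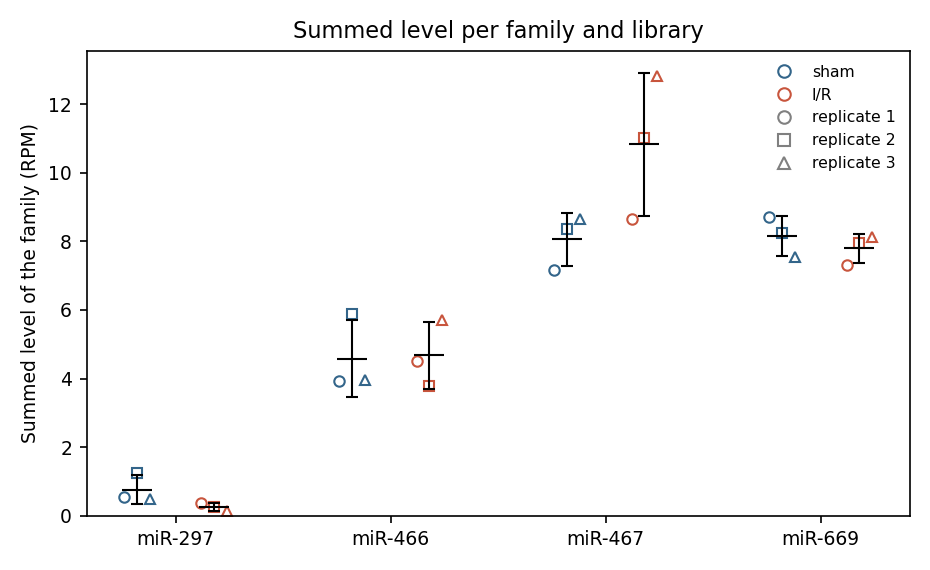
Summed level in RPM of all names of each family in each library (blue sham, red I/R, symbol shape the replicate number), with the group mean and SD in black, n = 3 each. miR-467 reaches 12.8 RPM in I/R replicate 3, miR-466 and miR-669 overlap between groups, and miR-297 is at most 1.24 RPM in any library.

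The reads came mainly from 5p arms. Names ending in 5p held 964 reads, those ending in 3p 122 and those without an arm 48, which is 85.0%, 10.8% and 4.23% of the group. The ratio of 5p to 3p reads was 6.2, 8.38 and 6.80 in sham and 8.53, 9.28 and 8.81 in I/R replicates 1 to 3. The lowest I/R value stood just above the highest sham value, with 17 to 25 reads of 3p names per library behind each ratio and no test. Of the 5p reads, miR-467a-5p held 32, 38 and 44 in sham and 46, 57 and 63 in I/R replicates 1 to 3. The ratio without miR-467a-5p was not computed, so the order of the groups is not shown for the other names.

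The side of the hairpin differed between precursors. Of 33 precursor names listed with both arms, 24 had more 5p than 3p reads, 5 had more 3p reads and 4 had no read on either arm. For miR-467a the arms held 280 and 12 reads, for miR-669c 155 and 2, for miR-669a 108 and 21, and for miR-467e 80 and 0. On the 3p side stood miR-466f with 4 reads on the 5p and 25 on the 3p arm, miR-466d with 2 and 10, and miR-669f with 2 and 9. Arms whose sequences recur in several hairpins may share reads, and how such reads were assigned is not given in the sources used here.

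**Figure D5:**
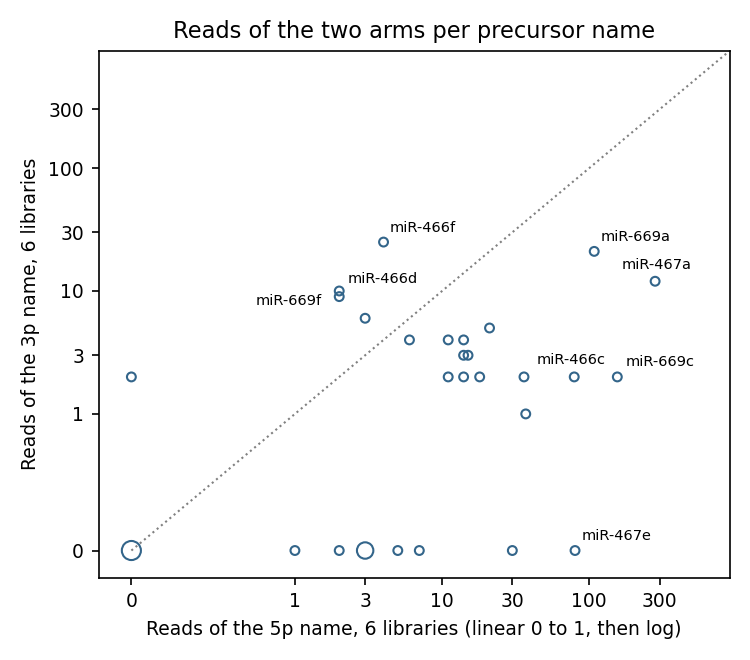
Reads over 6 libraries of the 5p name (horizontal) and the 3p name (vertical) for 33 precursor names, with axes linear from 0 to 1 and logarithmic above, larger circles where several precursors coincide, and a dotted line of equal reads. Most points lie below the line, miR-467a at 280 and 12 reads being the farthest to the right, and miR-466f lies above it at 4 and 25.

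The number of hairpins did not order the levels by itself. Over the 31 5p names with a hairpin in Sfmbt2, level and number of hairpins had a Pearson's r of 0.53 (log2 of RPM + 0.1) and a Spearman's rho of 0.38. These are descriptions across names that share libraries and sequence. The 9 names with more than 1 hairpin held 55.4% of the reads of the 31. miR-669c-5p and miR-467e-5p reached 3.07 and 1.59 RPM from 1 hairpin each, whereas miR-466b-5p with 8 hairpins stood at 0.420 RPM and miR-297a-5p and miR-466f-5p, each with 4 hairpins of which 3 are in the intron, at 0.116 and 0.0830 RPM.

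Names encoded outside Sfmbt2 added little. The 9 of them held 55 reads, 4.85% of the group, with 1.27 ± 0.26 RPM in the sham group and 0.907 ± 0.55 RPM in the I/R group (SD, n = 3 each), and the 5 names with hairpins in both places held 41 reads. The 64 names wholly in the intron held 1038 reads (91.5%), or 19.5 ± 1.74 and 21.8 ± 3.11 RPM. The highest outside name was miR-466i-5p with 18 reads, whose hairpin (chr13:17747473-17747593, plus strand, GRCm38) lies opposite to an intron of Cdk13. Of the miRNAs whose sequences are printed above, miR-466k and miR-466q had 9 reads each, miR-467f 7, miR-467h 4, miR-467g and miR-466j 3, miR-466i-3p 2 and miR-669n none.

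Other clusters known for restricted expression were counted in the same way. The embryonic stem cell cluster miR-290 to miR-295 held 10 reads in all, with 5 of 18 names above 0. The X-linked cluster known from testis held 1789 reads, with 26 of 38 names above 0, and its highest name was miR-547-3p at 15.3 RPM. The imprinted Dlk1-Dio3 cluster held 70030 reads, with 81 of 108 names above 0 and 32 kept for testing (29.6%), beside 57 of 80 above 0 (71.3%) and 5 kept (6.25%) here. Over all other mouse names 61.7% were above 0 and 20.9% were kept. These are counts of names in the same libraries, and the difference between clusters was not tested.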

How the data were processed

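The tools named are fastp 0.23.0 and bcl2fastq 2.19.1.403, with the genome build mm10, per the submitters' processing notes. Which aligner, miRNA annotation and strand setting were used, and how reads matching several hairpins were treated, is not given in the sources used here. The labels describe poly(A) mRNA kits although the titles say miRNA-seq. The deposited signal values, 1 per name and library, sum to the same total in each column. Every value (100%, within 0.01 reads) is a whole multiple of the smallest above 0, so reads were recovered and levels are given as RPM.

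I/R and sham were compared with limma 3.58.1 (R 4.3.3, mean-variance trend, two-sided) on log2(RPM + 1), for the 409 names that averaged 1 RPM or more and were above 0 in at least 3 of 6 libraries. Benjamini-Hochberg adjustment covered all 409. The limma fit was tested on simulated data. edgeR 4.0.16 and DESeq2 1.42.0 on recovered reads were alternatives. Named are all tested members and the 20 most abundant. Hairpins came from GENCODE M21 (GRCm38) and RefSeq synonyms. Members, lists and tests were chosen with earlier results of these data known.

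Deviations from the group mean had weak positive correlations between libraries with the same replicate number (r = 0.14, 0.28 and 0.16). Libraries with different numbers ran from -0.19 to 0.07. These values, from the data alone, do not establish a pairing. The main fit did not pair the libraries, and the replicate number as a block was an alternative. Replicates of 1 group differed beyond counting noise over 392 to 403 names per pair of libraries (chi-square per degree of freedom 34.7 to 138). That measure covers names of all levels together and was not computed for the scarce names described here alone. P-values set the difference between the groups against the spread between these samples.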

Additional observations from a re-analysis of the deposited data

How the results depend on the processing

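No member was called under any of 19 alternatives: 0 in each, with 0 to 2 at an unadjusted p under 0.05. With the replicate number as a block the count stayed 0 and no call on a member changed. miR-467a-5p was positive under all its alternatives, from 0.23 with 10 RPM added and 0.42 without sham replicate 1 to 0.68 without sham replicate 3. Its unadjusted p in limma was above 0.05 without sham replicate 1 (0.0856), without I/R replicate 2 (0.0596) or 3 (0.0830) and, in DESeq2, with all libraries (0.0631). miR-467e-5p was negative in all of its alternatives. Changing the filter, the variance options of limma or the replicate block leaves a log2 fold change as it was. Those alternatives therefore could not turn a sign. miR-669c-5p turned negative with median-ratio scaling (-0.0578), quantile normalization (-0.10), totals without the 10 most abundant names (-0.0378), edgeR (-0.0578) and DESeq2 (-0.0386), and ran from -0.13 to 0.30 when 1 library was left out. With 1 library left out miR-669a-5p ran from -0.26 to 0.00169 and miR-466c-5p from -0.00479 to 0.39. The summed level, 21.6 RPM in the sham and 23.5 RPM in the I/R group, became 17.2 and 16.7 RPM without miR-467a-5p, which turned the order of the means. It became 19.5 and 21.8 RPM with intron names only, and 119 and 123 RPM with totals without the 10 most abundant names. Leaving out 1 library gave 20.5 to 22.2 RPM for sham and 21.9 to 24.9 RPM for I/R. The number of names above 0, 35.7 in sham and 32.0 in I/R, was 15 and 14.7 at a minimum of 3 reads, and with 1 library left out 35 to 36 and 31 to 34. With a filter of 5 RPM only miR-467a-5p was left to test. No groups of identical mature sequence held a member in the RefSeq table, but it has sequences for only 8 of the 80 names and for no tested member. Summing identical sequences, 1 of the 19 alternatives, therefore could not change the values of the tested members. Whether names of the Sfmbt2 intron share mature sequences was not checked. For names with few reads depth limits every statement.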

Other observations

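Other miRNAs carry the same short repeats. Outside the 80 names, 31 names with a RefSeq mature sequence hold UGUGUG or ACACAC, of which 21 were above 0. They ran from 0 to the 620 RPM of let-7b-5p, a family member of the widespread let-7 miRNAs, in which the motif is a short stretch near the 3′ end. miR-574-5p, in which the repeat fills most of the sequence, was at 4.78, 8.02 and 6.91 RPM in sham hearts and at 8.05, 8.56 and 7.49 RPM in I/R hearts, replicates 1 to 3. Its groups overlapped, and its mean of 7.30 RPM was above that of each of the 80 names, of which miR-467a-5p was highest at 5.63 RPM. miR-1187, whose sequence is also mostly GU, had 4 reads in all. Both sequences (RefSeq, GRCm38.p6) are shown with seeds in capitals.
miR-574-5p: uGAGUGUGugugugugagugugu
miR-1187: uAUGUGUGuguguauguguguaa
The share of reads of repeat-bearing miRNAs that could come from other repeat loci was not tested.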
